A study of Mus musculus with 16 samples.

Results

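The insulin-like growth factor (IGF) genes were followed in the mouse heart: the ligands Igf1 and Igf2, the receptors Igf1r and Igf2r, and the binding proteins Igfbp2, Igfbp3, Igfbp4, Igfbp5, Igfbp6 and Igfbp7. These 10 genes were taken by their symbols from the 55573 genes in the count table, whatever their values, and 9 of them were among the 16857 genes that passed the filter on low counts. RNA came from the apex of the heart of 16 male wild-type mice that had been given adeno-associated virus serotype 9 on postnatal day 1, and hearts were taken 4 weeks after surgery. All mice carried a virus with the chicken cardiac troponin T (cTNT) promoter, which drives its cargo in cardiomyocytes. The cargo was GFP or Cardinal, a cardiac long noncoding RNA, and the surgery was sham or transverse aortic constriction (TAC), a banding of the aortic arch that raises the pressure load on the left ventricle. Each combination of cargo and surgery was a group of 4 mice. There was no group without virus, and only the cardiomyocytes are targeted by the cargo, while the RNA came from all cells of the tissue.

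IGF1 and IGF2 are secreted growth factors that activate IGF1R, a receptor tyrosine kinase that signals through insulin receptor substrates, PI3 kinase and AKT. IGF2R binds IGF2 and carries it to lysosomes without such signaling. The binding proteins hold the ligands in tissue and blood, and proteases release the ligands from them. In the heart, IGF1 signaling is known for its part in postnatal and exercise-induced cardiomyocyte growth, and the binding proteins are made largely by vascular cells and fibroblasts.

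The sequence just upstream of the RefSeq transcription start is shown for the members that rose with TAC in AAV9-GFP hearts and whose window holds no annotated exon. All 10 members had an entry in the RefSeq promoter table (GRCm38.p6), and the 250 bases before the start are given 5′ to 3′ on the strand of the gene. These starts differ from the GENCODE gene bounds given further below. The Igf1r window ends at 67952256 and the gene begins at 67952827 in GENCODE. For Igfbp6 these positions are 102144185 and 102144362. Capitals mark GGGCGG (the GC box), TATAAA (the TATA box) and CCAAT (the CCAAT box), each on either strand.
Igfbp7 (chr5:77408046-77408295, minus strand): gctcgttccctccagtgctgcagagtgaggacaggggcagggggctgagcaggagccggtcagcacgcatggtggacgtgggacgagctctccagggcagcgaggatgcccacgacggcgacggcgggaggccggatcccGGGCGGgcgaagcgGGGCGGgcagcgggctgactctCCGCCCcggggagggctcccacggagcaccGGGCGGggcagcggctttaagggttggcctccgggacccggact
Igf1r (chr7:67952007-67952256, plus strand): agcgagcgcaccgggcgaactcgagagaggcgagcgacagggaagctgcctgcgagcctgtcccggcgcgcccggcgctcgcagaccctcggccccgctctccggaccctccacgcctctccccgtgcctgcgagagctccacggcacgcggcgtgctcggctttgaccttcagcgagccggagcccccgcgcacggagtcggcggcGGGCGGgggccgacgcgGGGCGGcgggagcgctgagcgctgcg
Igfbp6 (chr15:102143936-102144185, plus strand): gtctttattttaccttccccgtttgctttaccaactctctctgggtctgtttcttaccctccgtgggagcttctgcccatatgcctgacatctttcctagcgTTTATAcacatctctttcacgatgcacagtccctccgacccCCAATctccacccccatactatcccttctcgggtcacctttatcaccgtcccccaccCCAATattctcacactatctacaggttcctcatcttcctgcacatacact
The Igfbp7 window held 4 GC boxes and the Igf1r window 2, at a GC content of 74.0% and 77.6%. The Igfbp6 window, at 49.6% GC, held no GC box, 2 CCAAT boxes and 1 TATAAA, the last on the opposite strand. These are matches to short motifs, and their use as promoter elements was not tested. Among 32851 windows of the same length, 32.7% held GGGCGG, 12.4% held TATAAA and 33.8% held CCAAT. None of these motifs was in all 3 windows. The Igf1 window lay wholly in exons of the GENCODE annotation and is not shown.

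Reads were counted on genes without normalization in the deposited table, with 16441997 to 21904589 counts per mouse, and levels are given as CPM (counts scaled to library size after TMM normalization, edgeR's cpm unit). A level of 3 counts, the smallest taken as detected, is 0.126 to 0.195 CPM, which covers counting error only. Mice of the same group differed by more than sampling noise, so each counted as a sample. The labels do not say more about how the mice of a group were raised, and p-values measure the spread between these samples. Cardinal (Gm12295) was at 18.3 to 93.9 CPM in AAV9-Cardinal hearts and at 3.42 to 7.24 CPM in AAV9-GFP hearts, and reads from the vector and the gene are counted together. The hypertrophy marker Acta1 was at 2324 ± 321 CPM in AAV9-GFP TAC hearts against 125 ± 27.6 CPM in sham hearts (SD, n = 4), and at 858 ± 349 CPM against 118 ± 21.6 CPM with AAV9-Cardinal. Other hypertrophy markers did not all follow this pattern. With TAC, Nppa rose by a log2 fold change of 3.58 with AAV9-GFP and 1.92 with AAV9-Cardinal (edgeR adjusted p = 8.1e-05 and 0.014). Nppb rose alike with both, at 1.96 and 1.97 (edgeR adjusted p = 0.0057 and 0.017). Myh7 did not differ detectably with either, at 0.07 and 0.01 (edgeR adjusted p = 0.46 and 0.93). AAV9-Cardinal TAC mouse 1 stood apart with the highest Cardinal level (93.9 CPM, against 18.3 to 20.6 CPM in the other mice of that group), so results are also given without it where it matters. The 7 cardiomyocyte markers of the list summed to 33242 to 46036 CPM over all mice, and none was at 0.

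Per kilobase of exon, the order of the members was led by Igfbp7, at a mean of 88.4 ± 29.8 RPKM over all mice (SD, n = 16). Igf2r followed at 15.2 ± 0.743 RPKM and Igfbp5 at 13.0 ± 2.58 RPKM. Igfbp4 was at 9.10 ± 1.02, Igfbp3 at 5.91 ± 1.19 and Igfbp6 at 5.88 ± 1.74 RPKM. The lowest were Igf2 at 1.48 ± 0.990, Igf1r at 1.47 ± 0.360 and Igf1 at 1.18 ± 0.325 RPKM. Igfbp7 was above every other member in every mouse, whereas Igf2r and Igfbp5, Igfbp5 and Igfbp4, Igfbp4 and Igfbp3, and Igfbp3 and Igfbp6 overlapped between mice. With the Igf2 row as listed, the ligands and Igf1r did not differ in level beyond their spread. Igf1r and Igf2 changed places when the longest transcript was used as the length. In 5 mice, however, most of these reads were listed for the overlapping gene Gm49394 (below), which lowers the mean of the Igf2 row and widens its spread. In the 11 mice without Gm49394 reads, Igf2 was at 1.40 to 2.72 RPKM, while Igf1 was at 0.760 to 1.84 RPKM over all mice. The place of Igf2 beside Igf1 and Igf1r is thus not settled by this row. Igf2r, which clears IGF2, was thus above the signaling receptor Igf1r in every mouse.

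Igfbp2 (chromosome 1, 72824503 to 72852474, plus strand), a binding protein known from fetal tissue and liver, had 0 counts in all 16 mice, which allows at most the 3 counts given above. It did not pass the filter and has no test. Igfbp1, the liver binding protein that is not among the members, was also at 0 in all mice. Of 213 genes for ribosomal, proteasomal, polymerase, chaperonin and initiation factor proteins, 4 were at 0 everywhere (Rpl39l, Rpl10l, Eif4e1b and Rpl36-ps4).

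**Figure D1:**
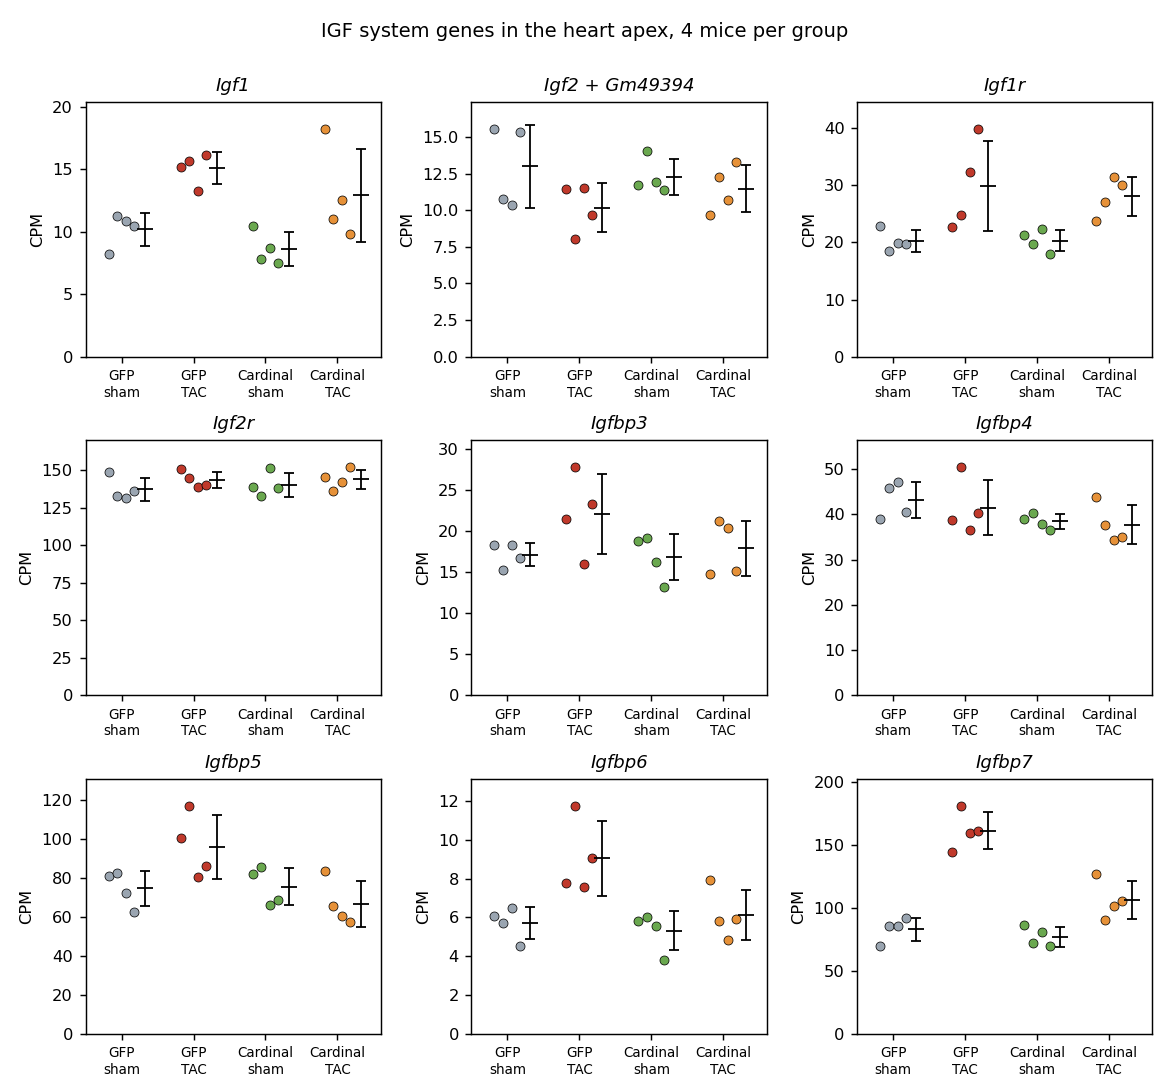
Level in CPM of the 8 members other than Igf2 and Igfbp2 and of Igf2 summed with its overlapping gene Gm49394, in each mouse (points, in order of mouse number) with the group mean and SD (bars, n = 4). Igfbp7 in AAV9-GFP TAC hearts sits between 144 and 181 CPM, above all other mice, while Igf2r stays between 131 and 152 CPM throughout.

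Igf1 (chromosome 10, 87858265 to 87937042, plus strand) is the ligand that rose with TAC. In AAV9-GFP sham hearts, mice 1, 2, 3 and 4 had 8.23, 11.2, 10.8 and 10.5 CPM. In AAV9-GFP TAC hearts, mice 1, 3, 4 and 7 had 15.2, 15.7, 13.3 and 16.1 CPM. Every TAC mouse was above every sham mouse. This was a log2 fold change of 0.57 (SE 0.16, 95% interval 0.21 to 0.92, edgeR adjusted p = 0.027), with an exact two-sided permutation p of 0.029, the smallest that 4 mice against 4 allow. The call was lost without AAV9-GFP sham mouse 1 (edgeR adjusted p = 0.084), TAC mouse 3 (0.068) or TAC mouse 7 (0.066), and without a filter on low counts (0.051).

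With AAV9-Cardinal, Igf1 was at 10.5, 7.81, 8.70 and 7.53 CPM in sham mice 1, 2, 3 and 4. TAC mice 1, 4, 5 and 6 had 18.2, 11.04, 12.6 and 9.81 CPM. These groups overlapped, since TAC mouse 6 was below sham mouse 1. TAC against sham gave 0.58 on the log2 scale (SE 0.17, edgeR adjusted p = 0.053) and did not pass the threshold in edgeR, whereas DESeq2 gave an adjusted p of 0.016. It was 0.37 without TAC mouse 1 (edgeR adjusted p = 0.10), and it was called in edgeR without TAC mouse 6 (adjusted p = 0.039).

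Igf2 (chromosome 7, 142650766 to 142666816, minus strand), the imprinted fetal ligand, was divided between 2 rows of the table. Gm49394, annotated as a protein-coding gene on the same strand (142650769 to 142669942), overlaps 62.8% of the Igf2 exon bases. Of the 50-base stretches of Igf2 transcripts, 61.2% are also in the Gm49394 transcript, and 76.1% of those of Gm49394 are in Igf2. The first 30 coding bases of 5 of the 7 Igf2 transcripts with an annotated start codon are shown because the Gm49394 transcript holds them unchanged, with the start codon in capitals. The first coding bases of the other 2 are not in Gm49394.
Igf2 and Gm49394 (chr7:142655781-142655810, minus strand): ATGgggatcccagtggggaagtcgatgttg
In 11 mice Igf2 had 175 to 329 counts and Gm49394 had 0. In the other 5 mice Igf2 had 14 to 32 counts and Gm49394 had 179 to 252. These 5 were AAV9-GFP sham mice 2 and 3, AAV9-GFP TAC mouse 1 and AAV9-Cardinal sham mice 1 and 3. The sum of both rows was 175 to 329 counts in the first set of mice and 211 to 268 in the second, so the reads moved between rows far more than their sum did. For no other member was more than 1.72% of the 50-base stretches in transcripts of another gene on the same strand.

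**Figure D2:**
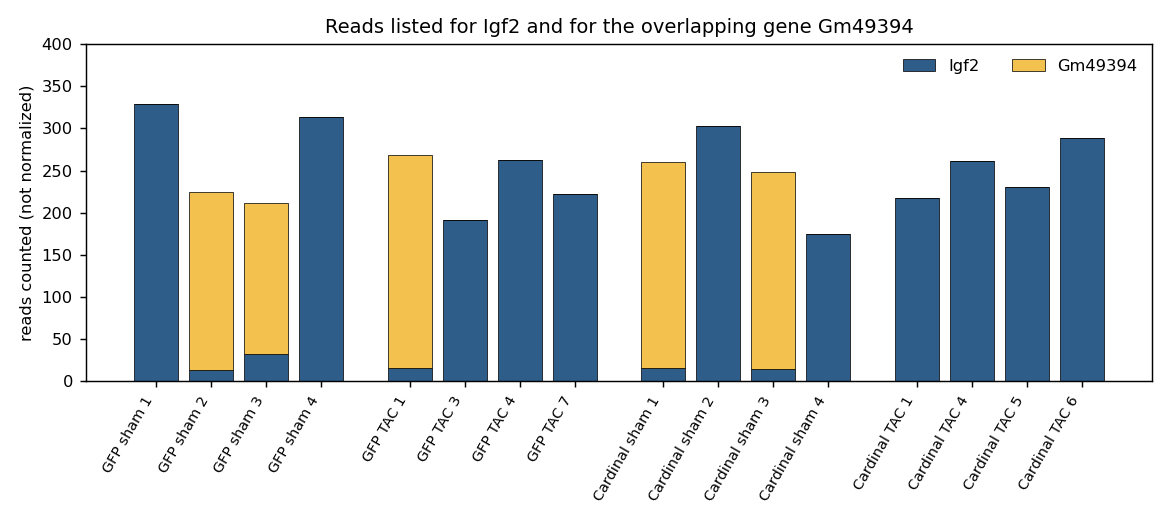
Reads counted on Igf2 (blue) and on Gm49394 (yellow) in each mouse, stacked and not normalized. In 5 mice nearly all reads are listed for Gm49394, and in the other 11 all are listed for Igf2.

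For this reason the 2 rows were also summed and fitted as 1 gene, a choice made after the data were seen. The sum was 15.6, 10.8, 10.3 and 15.3 CPM in AAV9-GFP sham mice 1, 2, 3 and 4, and 11.5, 8.01, 11.5 and 9.65 CPM in TAC mice 1, 3, 4 and 7. It was 11.7, 14.1, 11.9 and 11.4 CPM in AAV9-Cardinal sham mice and 9.65, 12.3, 10.7 and 13.3 CPM in TAC mice, in order of mouse number. All groups overlapped. TAC against sham gave a log2 fold change of -0.36 with AAV9-GFP (SE 0.15, 95% interval -0.68 to -0.03, edgeR adjusted p = 0.13) and -0.10 with AAV9-Cardinal (SE 0.15, edgeR adjusted p = 0.78), so no change of Igf2 passed the threshold. On the Igf2 row alone the values were -0.15 (SE 0.91) and 0.80 (SE 0.91), where the SE is dominated by the mice listed at 14 to 32 counts. Without those 5 mice, TAC against sham was -0.67 with AAV9-GFP (edgeR adjusted p = 0.041) and -0.15 with AAV9-Cardinal (0.70), from 2 sham and 3 TAC mice and from 2 sham and 4 TAC mice. In AAV9-GFP sham hearts the summed level was lower in the 2 mice with Gm49394 reads (10.3 and 10.8 CPM) than in the others (15.3 and 15.6 CPM), and its part in that value was not tested.

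Igf1r (chromosome 7, 67952827 to 68233668, plus strand), the signaling receptor, rose with TAC in AAV9-GFP hearts. AAV9-GFP sham mice 1, 2, 3 and 4 had 22.9, 18.4, 19.9 and 19.7 CPM. TAC mice 1, 3, 4 and 7 had 22.6, 24.8, 32.3 and 39.8 CPM. Only TAC mouse 1 overlapped the sham range, and the TAC mice were spread widely. The log2 fold change was 0.56 (SE 0.15, 95% interval 0.25 to 0.88, edgeR adjusted p = 0.017; exact two-sided permutation p = 0.057). The call was lost without AAV9-GFP sham mouse 2 (edgeR adjusted p = 0.051) or TAC mouse 7 (0.052) and with only these 8 mice in the fit (0.057).

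AAV9-Cardinal sham mice had 21.2, 19.7, 22.2 and 18.04 CPM of Igf1r, and AAV9-Cardinal TAC mice had 23.7, 27.1, 31.4 and 30.1 CPM. These groups did not overlap. TAC against sham gave 0.46 on the log2 scale (SE 0.15, 95% interval 0.15 to 0.78, exact two-sided permutation p = 0.029) at an edgeR adjusted p of 0.079, and DESeq2 called it (adjusted p = 0.032). In edgeR it was also called without AAV9-Cardinal TAC mouse 1 (adjusted p = 0.046), AAV9-GFP TAC mouse 1 (0.043) or AAV9-GFP TAC mouse 7 (0.033), and with only these 8 mice (0.030). In contrast to Igf1, the highest Igf1r values were not in AAV9-Cardinal TAC mouse 1, which had the lowest of its group.

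Igf2r (chromosome 17, 12682406 to 12769664, minus strand), which clears IGF2 and sorts lysosomal enzymes, varied little between mice, from 131 to 152 CPM. Group means were 137 ± 7.86 CPM in AAV9-GFP sham, 144 ± 5.54 in AAV9-GFP TAC, 140.2 ± 7.98 in AAV9-Cardinal sham and 144 ± 6.58 in AAV9-Cardinal TAC hearts (SD, n = 4). The log2 fold change with TAC was 0.07 (95% interval -0.05 to 0.18) with AAV9-GFP and 0.04 (-0.08 to 0.15) with AAV9-Cardinal. Larger changes than these bounds were thus outside the intervals, and no test passed the threshold.

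Igfbp7 (chromosome 5, 77349240 to 77408041, minus strand) encodes a secreted protein that binds IGFs with low affinity and is abundant in vessels. It showed the largest change among the members. AAV9-GFP sham mice 1, 2, 3 and 4 had 69.8, 85.5, 85.2 and 91.5 CPM. TAC mice 1, 3, 4 and 7 had 144, 181, 159 and 161 CPM. No TAC mouse came near the sham range, and the log2 fold change was 0.96, or 1.94-fold (SE 0.11, 95% interval 0.73 to 1.19, edgeR adjusted p = 4.6e-05; exact two-sided permutation p = 0.029). This call held with each of the 16 mice left out in turn and in all 10 alternatives.

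With AAV9-Cardinal, Igfbp7 was at 86.3, 71.7, 81.0 and 69.4 CPM in sham mice and at 127, 90.7, 102 and 105 CPM in TAC mice. Every TAC mouse was above every sham mouse, by a small margin for TAC mouse 4. The log2 fold change was 0.46, or 1.37-fold (SE 0.11, 95% interval 0.23 to 0.69, edgeR adjusted p = 0.022; exact two-sided permutation p = 0.029). It was 0.37 without TAC mouse 1 (edgeR adjusted p = 0.040), and the call was lost without AAV9-Cardinal sham mouse 2 (0.074) or 4 (0.063) or TAC mouse 5 (0.051) or 6 (0.053). The 3' end of Igfbp7 overlaps that of Polr2b on the opposite strand over 85 exonic bases (7.03%), and the strand setting of the counting is not given in the sources used here.

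Igfbp6 (chromosome 15, 102144362 to 102149511, plus strand) prefers IGF2 over IGF1. AAV9-GFP sham mice had 6.05, 5.71, 6.47 and 4.55 CPM, and AAV9-GFP TAC mice had 7.76, 11.7, 7.57 and 9.09 CPM. Every TAC mouse was above every sham mouse. This was a log2 fold change of 0.67 (SE 0.18, 95% interval 0.29 to 1.04, edgeR adjusted p = 0.017; exact two-sided permutation p = 0.029), and the call was lost without sham mouse 4 (edgeR adjusted p = 0.053) or TAC mouse 3 (0.067). AAV9-Cardinal sham mice had 5.83, 5.99, 5.57 and 3.83 CPM and TAC mice 7.92, 5.83, 4.84 and 5.89 CPM. Here the groups overlapped and TAC mouse 1 alone was above all sham mice (log2 fold change 0.20, 95% interval -0.19 to 0.59, edgeR adjusted p = 0.60).

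Igfbp5 (chromosome 1, 72857932 to 72874884, minus strand), which attaches to matrix, did not pass the threshold with TAC. AAV9-GFP sham mice had 80.7, 82.4, 72.3 and 62.4 CPM, and AAV9-GFP TAC mice had 100.1, 117, 80.2 and 85.7 CPM. TAC mouse 4 lay within the sham range, and the log2 fold change was 0.36 (SE 0.14, 95% interval 0.07 to 0.66, edgeR adjusted p = 0.088). Without that mouse it was 0.44 (edgeR adjusted p = 0.049). AAV9-Cardinal sham mice had 81.7, 85.4, 65.7 and 68.7 CPM, and AAV9-Cardinal TAC mice had 83.3, 65.7, 60.1 and 57.2 CPM. The value there lay in the other direction, at -0.18 (95% interval -0.48 to 0.12, edgeR adjusted p = 0.51), and without TAC mouse 1 it was -0.30 (edgeR adjusted p = 0.18).

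Igfbp3 (chromosome 11, 7206086 to 7213923, minus strand), the main IGF carrier of blood, ranged from 15.3 to 18.3 CPM in AAV9-GFP sham and from 15.97 to 27.8 CPM in AAV9-GFP TAC hearts. The log2 fold change was 0.37 (SE 0.16, edgeR adjusted p = 0.14), and it was called without AAV9-GFP TAC mouse 4, the lowest of its group (edgeR adjusted p = 0.035). With AAV9-Cardinal the ranges were 13.2 to 19.2 and 14.8 to 21.2 CPM, with a log2 fold change of 0.08 (SE 0.16). Igfbp4 (chromosome 11, 99041244 to 99054392, plus strand), an inhibitor of IGF action that PAPP-A cleaves, lay between 34.3 and 50.4 CPM in all mice. Its log2 fold change was -0.06 (95% interval -0.27 to 0.15) with AAV9-GFP and -0.03 (-0.24 to 0.18) with AAV9-Cardinal.

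The makeup of the binding protein transcripts moved with Igfbp7. Per length, the 5 detected binding proteins summed to 101 ± 6.75 RPKM in AAV9-GFP sham and 174 ± 18.2 RPKM in AAV9-GFP TAC hearts, and to 95.2 ± 8.33 and 119 ± 14.9 RPKM with AAV9-Cardinal (SD, n = 4). The share of Igfbp7 in that sum was 67.5% ± 3.70 in AAV9-GFP sham and 76.8% ± 2.22 in AAV9-GFP TAC hearts. It was 67.0% ± 2.76 and 73.9% ± 2.39 with AAV9-Cardinal. The share of Igfbp4 went from 9.64% ± 0.611 to 5.39% ± 0.298 with AAV9-GFP, although its own level did not differ detectably, and from 9.18% ± 0.654 to 7.22% ± 0.533 with AAV9-Cardinal. These shares are a description without a test.

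**Figure D3:**
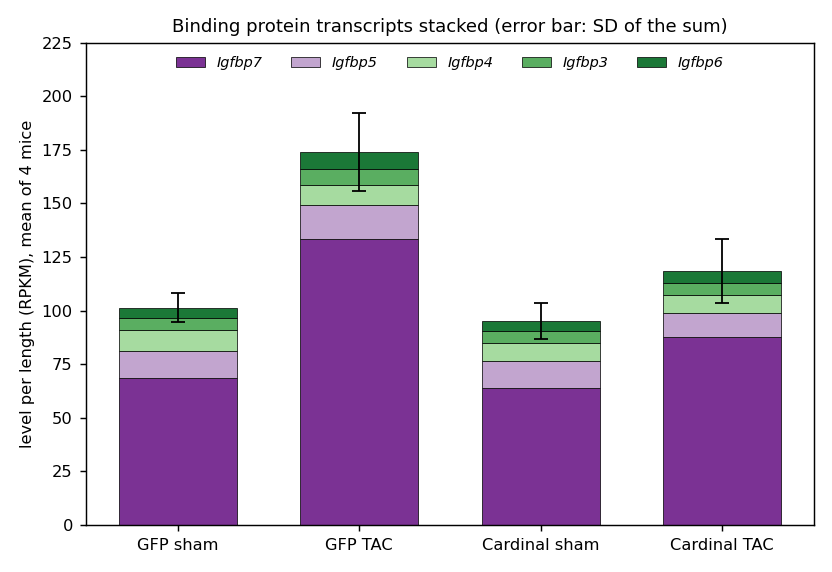
Mean level per length (RPKM, 4 mice) of the 5 detected binding proteins, stacked by group, with the SD of the sum as error bar. The bar for AAV9-GFP TAC hearts reaches 174 RPKM, of which Igfbp7 makes up 76.8%, and the other bars lie between 95.2 and 119 RPKM.

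Across the members, 4 of the 9 tested (Igf1, Igf1r, Igfbp6 and Igfbp7) rose with TAC in AAV9-GFP hearts and 0 fell in edgeR. Of all tested genes 17.4% were called in this comparison, 8.49% as higher, and 29.9% had an unadjusted p under 0.05, as did 6 members. The median log2 fold change of the members was 0.37, against 0.01 for all genes tested. In AAV9-Cardinal hearts 1 of 9 (Igfbp7) rose and 0 fell, where 6.48% of all tested genes were called and 3.1% as higher, and the median of the members was 0.20 against 0.00. DESeq2 called 3 there (Igf1, Igf1r and Igfbp7), and 9.19% of the 14891 genes to which it gave an adjusted p. Members whose TAC mice were all above the sham mice numbered 3 of 9 with AAV9-GFP, where 10.1% of all genes did so, and 2 of 9 with AAV9-Cardinal, where 6.51% did. The TAC change itself did not differ between the vectors for any member in edgeR (0 of 9, with 0.0119% of all genes called). At an unadjusted p under 0.05 there were 2 members and 10.2% of all genes, and DESeq2, which gave an adjusted p to 2476 genes and 3 members (Igf2r, Igfbp5 and Igfbp7), called 5.53% of those genes and 1 of those members. The difference in log2 fold change was -0.50 for Igfbp7 (SE 0.15, edgeR adjusted p = 0.31, and 0.039 in DESeq2), -0.54 for Igfbp5 (SE 0.20, 0.38), -0.47 for Igfbp6 (SE 0.25, 0.55) and 0.01 for Igf1 (SE 0.23, 95% interval -0.49 to 0.51).

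**Figure D4:**
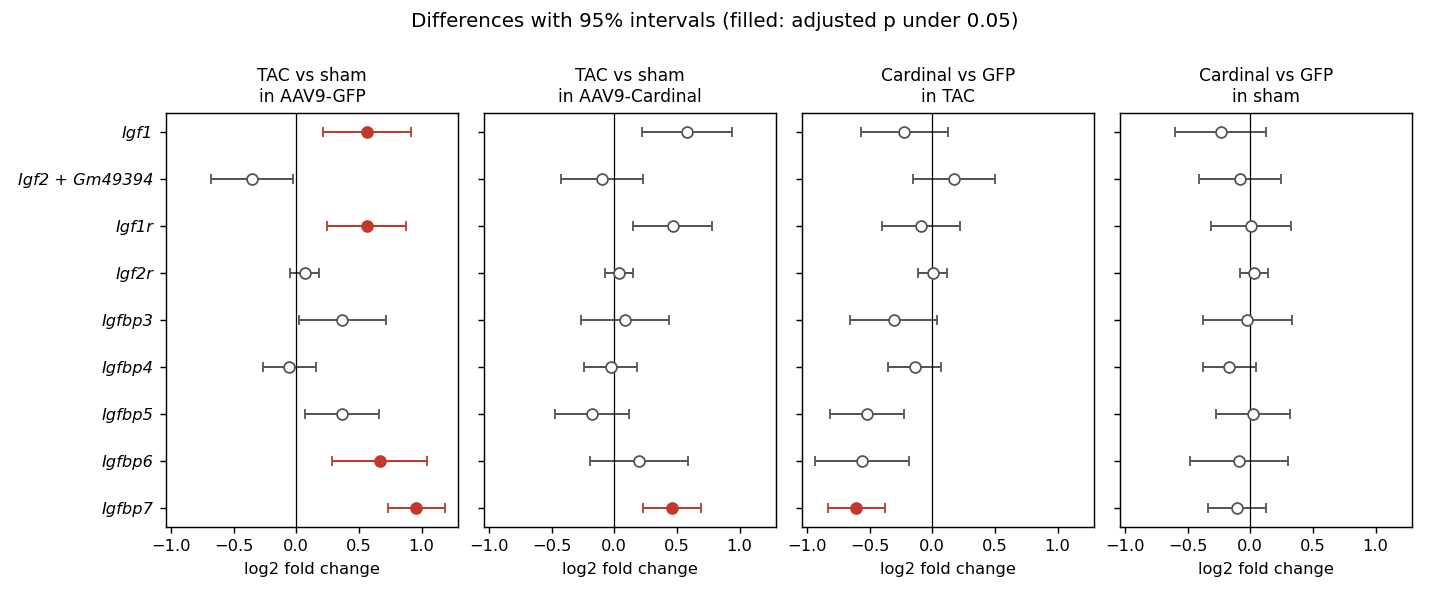
Log2 fold change of each tested member (Igf2 summed with Gm49394) with its 95% interval from the edgeR fit in 4 comparisons, with filled red points for an adjusted p under 0.05. The values of Igfbp7 are 0.96 and 0.46 for TAC against sham and -0.61 for Cardinal against GFP in TAC hearts, and in sham hearts all intervals cross 0.

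After TAC, Igfbp7 was lower in AAV9-Cardinal hearts than in AAV9-GFP hearts. The highest AAV9-Cardinal TAC mouse, at 127 CPM, was below the lowest AAV9-GFP TAC mouse, at 144 CPM. The log2 fold change was -0.61, a ratio of 0.657 (SE 0.11, 95% interval -0.83 to -0.38, edgeR adjusted p = 0.045; exact two-sided permutation p = 0.029). It was the only member of 9 called, where 0.101% of all genes were called and 0.0771% as lower, and the only one whose mice did not overlap, where 3.19% of all genes had all AAV9-Cardinal mice lower. The call held in 6 of 10 alternatives, with an adjusted p of up to 0.41. In edgeR it was lost, among others, with only the 8 TAC mice in the fit (adjusted p = 0.22), without the 5 mice with Gm49394 reads (0.14), without a filter on low counts (0.080) and when any of 12 of the 16 mice was left out, with an adjusted p of up to 0.21. Those were AAV9-GFP sham mice 2, 3 and 4, AAV9-GFP TAC mice 3 and 7, all AAV9-Cardinal sham mice and AAV9-Cardinal TAC mice 4, 5 and 6, and with each of the 16 mice left out the log2 fold change stayed between -0.70 and -0.54. DESeq2 gave an adjusted p of 4.5e-05 and called 2 members (Igfbp5 and Igfbp7) and 4.75% of the 9010 genes to which it gave an adjusted p, which did not include Igfbp6. This comparison and that of TAC with sham share the AAV9-GFP TAC mice.

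Among the other members, Igfbp6 was at -0.56 (SE 0.18, edgeR adjusted p = 0.16) and Igfbp5 at -0.52 (SE 0.14, edgeR adjusted p = 0.10, and 0.011 in DESeq2) for Cardinal against GFP after TAC. In the first the mice overlapped only through AAV9-Cardinal TAC mouse 1, at 7.92 CPM, and in the second likewise, at 83.3 CPM. Without that mouse both were called, at -0.71 (edgeR adjusted p = 0.043) and -0.65 (0.020), and Igfbp7 was at -0.70 (0.0034). The share of all genes called without that mouse is not given here, so these calls cannot be read as particular to the members. Igf1 was at -0.22 with that mouse (95% interval -0.57 to 0.12) and at -0.43 without it (edgeR adjusted p = 0.080). The remaining intervals were -0.65 to 0.04 for Igfbp3, -0.35 to 0.07 for Igfbp4, -0.40 to 0.22 for Igf1r and -0.11 to 0.12 for Igf2r.

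In sham hearts 0 of 9 members were called between the vectors in edgeR, where 0.0119% of all genes were called. At an unadjusted p under 0.05 there were 0 members and 2.59% of all genes, and DESeq2 called 0 members and 0.0237% of the 16852 genes to which it gave an adjusted p. The log2 fold changes lay between -0.23 for Igf1 (95% interval -0.60 to 0.13) and 0.03 for Igf2r (-0.08 to 0.14), apart from the Igf2 row at -0.33 (SE 0.93). For Igfbp7 the interval was -0.34 to 0.12.

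Fibroblast markers moved with these results. All 8 markers of the list (Col1a1, Col1a2, Col3a1, Pdgfra, Dcn, Lum, Tcf21 and Postn) were above sham in AAV9-GFP TAC hearts, 5 of them called, and their summed level was 519 to 588 CPM in AAV9-GFP sham and 904 to 1169 CPM in AAV9-GFP TAC mice. With AAV9-Cardinal the sum was 505 to 564 CPM in sham mice, 990.4 CPM in TAC mouse 1 and 530 to 573 CPM in the other 3 TAC mice. Postn alone was called in AAV9-Cardinal TAC hearts. AAV9-Cardinal TAC mouse 1 had the highest Igf1, Igfbp4, Igfbp5, Igfbp6 and Igfbp7 of its group. It also had the lowest Igfbp3 (14.8 CPM), Igf1r (23.7 CPM) and Igf2 (9.65 CPM), so the members did not all go the same way in this mouse. In the other 3 mice, whose fibroblast sum was within the range of AAV9-GFP sham mice, Igfbp7 was at 90.7 to 105 CPM, near or above the highest AAV9-GFP sham mouse at 91.5 CPM. Endothelial markers summed to 456 to 557 and 534 to 637 CPM in AAV9-GFP sham and TAC mice, with 2 of 6 higher (Cdh5 and Egfl7). Cardiomyocyte markers summed to 42557 to 46036 and 33242 to 39988 CPM in the same groups, with 5 of 7 lower. The part of these cell types in the IGF results was not tested, and in bulk tissue fewer cells of a type and less RNA per cell cannot be told apart.

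**Figure D5:**
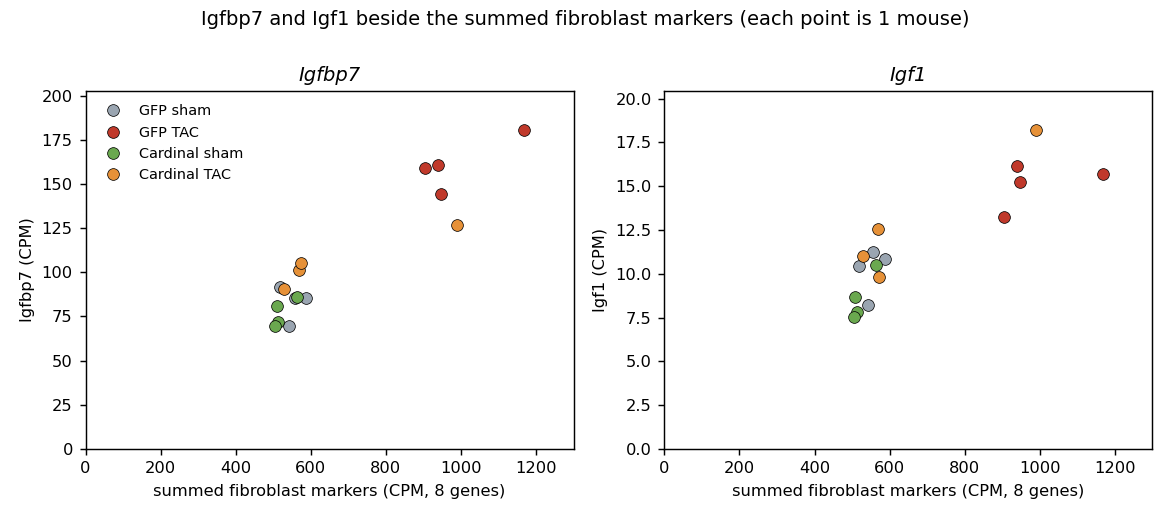
Igfbp7 (left) and Igf1 (right) in CPM against the summed CPM of the 8 fibroblast markers, each point being 1 mouse. The AAV9-GFP TAC mice lie at 904 to 1169 CPM of markers with AAV9-Cardinal TAC mouse 1 at 990.4 CPM, and all other mice lie at or below 588 CPM.

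Other genes of the pathway were read from 4 lists, whose counts stand against the shares of all tested genes called with TAC, 17.4% with AAV9-GFP and 6.48% with AAV9-Cardinal. Of the extracellular regulators 6 of 9 were tested (Igfbp1, Igfbpl1 and Pappa2 were not), and 1 fell with TAC in each vector group while 0 rose. This was Htra1, a secreted serine protease that cleaves IGF-binding proteins, at 55.4 ± 4.45 CPM in AAV9-GFP sham and 36.0 ± 2.37 CPM in AAV9-GFP TAC hearts (SD, n = 4), a log2 fold change of -0.62 (SE 0.07, edgeR adjusted p = 3.6e-05). With AAV9-Cardinal it was at 53.7 ± 1.93 and 42.8 ± 2.92 CPM, a log2 fold change of -0.33 (SE 0.07, edgeR adjusted p = 0.011). The medians of this list were -0.29 and 0.13 in the AAV9-GFP and AAV9-Cardinal comparisons.

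Of the 7 receptor partners, Grb14, an adaptor that inhibits insulin receptor signaling, fell with TAC in AAV9-GFP hearts (log2 fold change -0.46, SE 0.11, edgeR adjusted p = 0.0091), and 0 rose. Its value with AAV9-Cardinal was -0.28 (edgeR adjusted p = 0.14). Grb10, an adaptor that inhibits IGF1R and insulin receptor signaling, rose in AAV9-Cardinal hearts (0.32, SE 0.09, edgeR adjusted p = 0.046), with 0.21 (adjusted p = 0.12) in AAV9-GFP hearts. The insulin receptor Insr was at -0.04 and 0.13 in these comparisons and passed neither test. The medians of the list were -0.03 and 0.13.

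Among 22 genes of the PI3K-AKT-mTOR list, 2 rose and 3 fell with AAV9-GFP and 3 rose and 2 fell with AAV9-Cardinal, where 17.4% and 6.48% of all tested genes were called in either direction. Akt2, which encodes an AKT kinase, fell in both (log2 fold change -0.40 and -0.28, SE 0.05 in each, edgeR adjusted p = 9.8e-05 and 0.0055). In AAV9-GFP hearts Pik3r1, a regulatory PI3 kinase subunit, fell (-0.60, SE 0.15, edgeR adjusted p = 0.012), as did the transcription factor gene Foxo3 (-0.43, SE 0.13, adjusted p = 0.027). In AAV9-Cardinal hearts Pik3r2 fell (-0.46, SE 0.11, edgeR adjusted p = 0.023) and Pik3ca, a catalytic subunit, rose (0.23, SE 0.06, adjusted p = 0.038), as did Rheb, the GTPase that activates mTOR (0.19, adjusted p = 0.049). Pik3cb, a further catalytic subunit, rose with AAV9-GFP (0.28, edgeR adjusted p = 0.011). The medians were 0.00 and 0.03, close to those of all genes.

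Of the 6 genes of the Igf2 locus and Igf2 message list, 3 were tested (H19, Igf2bp2 and M6pr), and 1 rose in AAV9-Cardinal hearts. This was Igf2bp2, an RNA-binding protein named for binding Igf2 messages, at 2.44 ± 0.266 CPM in sham and 6.69 ± 2.35 CPM in TAC hearts (log2 fold change 1.45, SE 0.29, edgeR adjusted p = 0.010). With AAV9-GFP it was at 3.17 ± 0.518 and 4.62 ± 1.71 CPM (0.54, SE 0.28, edgeR adjusted p = 0.22). H19, the maternally expressed noncoding neighbor of Igf2, was at -0.84 (SE 0.33, edgeR adjusted p = 0.10) and -0.20 (SE 0.34). No gene of the 4 lists was called between the vectors after TAC or sham in edgeR, with 2, 1, 6 and 0 genes at an unadjusted p under 0.05 after TAC, in the order of the lists above, and 0 in each after sham. Over all genes 15% had an unadjusted p under 0.05 after TAC.

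The genes most alike in pattern to each member were named by the correlation of log2 CPM over the 16 mice, among the 14293 genes whose mean level reached 1 CPM. For Igfbp7 these were Adamts2, Col15a1 and Mfap4 (r = 0.97 for each), for Igf1 Col1a2 (0.93), Gm15599 (0.91) and Col6a2 (0.90), and for Igfbp6 Dact3 and Spns2 (0.94 and 0.93). For Igfbp5 they were Cygb, Tmem176a and Sirpa (0.93, 0.91 and 0.91) and for Igf1r Purb, Ms4a6d and Zfp770 (0.93 for each). The highest values for Igf2r, Igfbp3, Igfbp4 and the Igf2 row were 0.78, 0.90, 0.81 and 0.74, with Atg5, AC123951.1, Gm49037 and Hspe1-ps2. Between members, Igf1 and Igfbp7 (r = 0.88), Igfbp6 and Igfbp7 (0.81) and Igfbp5 and Igfbp6 (0.77) were highest, and Igf1r with Igfbp4 was lowest (-0.36). All these values include the difference between groups, and the mice share the surgery and its timing, so they describe these 16 hearts alone.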

How the data were processed

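Single-end reads of 50 bases were obtained from poly(A) RNA of 16 heart apices. The authors aligned reads to GRCm38 with HISAT2 2.1.0 after FastQC, and deposited raw counts per gene, without normalization. The counting program, its annotation and its use of strand are not given in the sources used here. Here 55573 genes were read, 55480 of them named through GENCODE M21, and tested with edgeR 4.0.16 (quasi-likelihood test, TMM, its filter on low counts, all 16 mice in 1 fit of 4 groups, Benjamini-Hochberg adjustment over 16857 genes, threshold 0.05), with DESeq2 1.42.0 as an alternative. Single genes were also compared by the exact permutation test over 70 labelings of the mice. RPKM used the exon length. The fit was tested on simulated counts. Named genes were the members, genes of the pathway lists past the threshold (up to 4 with the largest change in each direction) and the 3 genes most alike to each member, of which some are not reported here. Members and lists, marker lists included, were chosen with earlier results of these data known. Alternatives were other normalizations, filters and fits, and leaving out each mouse. Same-numbered mice of different groups correlated at -0.04 to 0.21 (median 0.05), with 4 of 16 pairs over 0.1, all between mice numbered 1. Other pairs were at -0.19 to 0.22 (median -0.01), with 4 of 80 over 0.1. The numbers were not taken to pair mice in the main fit, and a fit with the number as a block is given below. Whether same-numbered mice share a batch was not tested. Depth (16441997 to 21904589 counts) set the lowest detectable level.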

Additional observations from a re-analysis of the deposited data

How the results depend on the processing

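Igfbp7 in AAV9-GFP hearts, TAC against sham, was called under every alternative tried. The number of members called with TAC in AAV9-GFP hearts was 4 and ranged from 2 to 6 with single mice left out. In AAV9-Cardinal hearts it was 1 and ranged from 0 to 2, for Cardinal against GFP after TAC it was 1 and ranged from 0 to 3, and in sham hearts and for the difference in TAC change between vectors it was 0 throughout. The share of all genes called in the fits with a mouse left out is not given here. DESeq2 called 3 members in AAV9-Cardinal hearts, 2 between vectors after TAC and 1 for the difference in TAC change. A filter of at least 1 CPM in 4 mice and a fit of only the 8 mice each called 2 in AAV9-Cardinal hearts. Between vectors after TAC, 0 were called in edgeR without a filter on low counts or with only the 8 mice. With the replicate number as a block, 0 were called in AAV9-Cardinal hearts (Igfbp7 adjusted p = 0.19) and 0 between vectors after TAC (Igfbp7 adjusted p = 0.41), where the median of the members was -0.07. The replicate block turned the direction of Igfbp5 (0.063), Igfbp4 (0.18) and Igf2r (-0.014) in AAV9-Cardinal hearts and of Igfbp4 (0.043), Igf2r (-0.039) and Igf1 (0.0074) between vectors after TAC. It lost Igf1 (adjusted p = 0.073) and Igf1r (0.12) and gained Igfbp5 (0.016) in AAV9-GFP hearts. Without the libraries with Gm49394 reads, an alternative chosen after seeing the data that leaves 11 mice, 2 members were called with TAC under AAV9-GFP, 0 under AAV9-Cardinal and 0 between vectors after TAC. It turned Igfbp4 (0.091) and Igf2r (-0.013) in AAV9-GFP hearts, Igf2 (-0.15) in AAV9-Cardinal hearts, Igf1r (-0.17) and Igf2r (-0.073) in sham hearts, and Igfbp4 (-0.12) and Igf2r (0.10) for the difference in TAC change. Igf2 summed with Gm49394, also chosen after seeing the data, was at -0.10 in AAV9-Cardinal hearts. Without division by length, Igfbp7 made up 41.9% of the binding protein counts over all mice (37.2% in AAV9-GFP sham, 49.1% in AAV9-GFP TAC, 36.2% in AAV9-Cardinal sham and 45.2% in AAV9-Cardinal TAC hearts), against 71.3% per length. Leaving out single mice changed the sign of 44 of 720 values, none of a called member. The ranges in AAV9-GFP hearts were -0.16 to 0.0013 for Igfbp4 and -0.54 to 0.35 for Igf2. With AAV9-Cardinal they were -0.013 to 0.17 for Igfbp3 and -0.11 to 0.014 for Igfbp4. Between vectors after TAC they were -0.20 to 0.080 for Igf1r and -0.022 to 0.029 for Igf2r. Between vectors in sham hearts they were -0.091 to 0.074 for Igfbp3, -0.041 to 0.070 for Igf1r, -0.057 to 0.080 for Igfbp5, -0.18 to 0.026 for Igfbp6, -0.0080 to 0.072 for Igf2r and -1.07 to 0.17 for Igf2. For the difference in TAC change they were -0.21 to 0.072 for Igf1r, -0.052 to 0.14 for Igfbp4, -0.069 to 0.011 for Igf2r and -0.20 to 0.12 for Igf1. Apart from the construction of each alternative, the cause was not tested. Depth limits Igfbp2 to under 0.126 to 0.195 CPM.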

Other observations

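Other marker lists gave these counts for TAC against sham in AAV9-GFP hearts by edgeR. Of 5 pericyte markers 2 rose and 1 fell, of 4 smooth muscle markers 1 rose (Cnn1), and of 6 macrophage markers 1 rose (C1qb). Red blood cell (5 tested), mesothelium (3) and atrial myocyte markers (1) had 0 called, and no lymphocyte, adipocyte or hepatocyte marker passed the filter on low counts. Pericyte markers summed to 896 to 979 CPM in AAV9-GFP sham mice and 815 to 869.8 CPM in AAV9-GFP TAC mice. The lower sum came from Abcc9 alone, at 364 ± 17.7 CPM in sham and 229 ± 20.7 CPM in TAC hearts. The other 4 (Pdgfrb, Rgs5, Kcnj8 and Cspg4) had log2 fold changes above 0, so the sum does not stand for the list. Macrophage markers summed to 105 to 121 and 123 to 140 CPM in the same groups.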
